A study of Danio rerio with 8 samples.

Results

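Collagen genes were described by type in zebrafish larvae whose motile cilia are paralysed. The genes were those whose deposited symbol begins with col, a type number, the letter a and a chain number, which took 57 of the 20409 genes in the table. All 57 were tested. In RefSeq 55 of them carry collagen symbols. The other two, col4a3bpa and col4a3bpb, are the ceramide transfer protein genes named cert1a and cert1b there, and they were kept out of every count of collagen genes. Their log2 fold changes were -0.03 and 0.02. By type number, 15 collagen genes were fibrillar (types I, II, V, XI and XXVII), 10 were fibril-associated collagens with interrupted triple helices, known as FACITs (types IX, XII, XIV, XVI, XIX and XXI), 10 were of the basement membrane (types IV, XV and XVIII) and 20 were placed together as other types. The other types include col24a1, a fibrillar collagen gene by its protein, because the grouping went by number.

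RNA was measured by sequencing of whole larvae at 4 days post fertilization, with 30 pooled larvae in each of 8 libraries. From each of 4 clutches there was 1 library of larvae homozygous for smh, a mutation of the dynein arm assembly gene ccdc103, and 1 library of sibling controls. The mutants were recognised by a tail bent downward, and the controls pooled heterozygotes with wild-type siblings, so part of the control larvae carried 1 mutant allele. No larvae were treated. Values are on the log2 CPM scale, where CPM stands for reads of a gene per 1e6 reads of the library, and their depth is unknown. Identical values recur between libraries, such as 11.745 log2 CPM for col1a1a in control 4, mutant 1 and mutant 3. The values thus appear to have been normalized between libraries, and CPM here is not a plain share of reads. CPM is not divided by transcript length, so levels are compared between libraries and not between genes.

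Collagens are secreted trimers of α chains wound into a triple helix, in which glycine recurs at a fixed interval. Fibrillar collagens form the cables of bone, skin, tendon, cartilage and the notochord sheath, FACITs sit on the surface of those fibrils, and type IV collagen forms the sheet-like network of basement membranes. In the zebrafish larva the main sources are chondrocytes, notochord sheath cells, basal epidermis, fibroblasts of fins and tendons, muscle connective tissue and vessel walls. Chains are hydroxylated and folded in the endoplasmic reticulum, exported in large carriers, trimmed outside the cell and cross-linked.

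The level of the targeted gene did not separate the groups, so it gives no check of the labels. ccdc103 had 0.64, 1.00, 0.67 and 0.40 log2 CPM in the controls of clutches 1 to 4 and 0.55, 0.33, 0.33 and 1.00 log2 CPM in the mutants, near the lower limit of the tested genes, and the groups overlapped (difference -0.13 log2 units, limma adjusted p = 1.00). Over all genes, clutch mates deviated together from their group means. Library totals were nearly equal, at 997999 to 998006 CPM, which normalization between libraries would also give.

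Across the collagen genes the differences between mutants and sibling controls were small, and they had different signs for different chains. The cartilage FACIT gene col9a1b was lower in mutants of 4 of 4 clutches, with a mean difference of -0.45 log2 units. The type VII-like gene col7a1l and the fibrillar cartilage gene col11a1b were higher in 4 of 4 clutches, by 0.34 and 0.27 log2 units. In a limma model of genotype over all 20154 tested genes, 0 of the 55 collagen genes passed a Benjamini-Hochberg adjusted p of 0.05, against 0.0744% of all tested genes (0.0546% higher and 0.0198% lower). An unadjusted p under 0.05 was seen for 6 collagen genes, all higher in mutants (10.9%, against 3.41% of all tested genes, 1.94% higher and 1.48% lower). With clutch as a block, these 3 genes passed, which is 5.45% of the collagen genes against 2.34% of all tested genes. Of the 3, 2 were higher (0.948% of all tested genes were called higher) and 1 was lower (1.39% were called lower). The 3 blocked calls were all lost without clutch 4. They were also lost when the blocked limma model used plain moderation, with neither trend nor robust option (0 of 55 passed, against 0.248% of all tested genes, 0.149% higher and 0.0992% lower). Of the 55, 9 were then higher and 3 lower at an unadjusted p under 0.05, against 5.81% and 6.45% of all tested genes, 12.3% in all.

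Set against all genes, more collagen genes lay above 0 than below. Of the 55, 45 had a log2 fold change above 0 (81.8%, against 51.1% of all tested genes), and the median was 0.09 against 0.00. The medians were 0.12 for fibrillar genes, 0.08 for FACITs, 0.14 for basement membrane collagens and 0.08 for the other types, with 14 of 15, 8 of 10, 7 of 10 and 16 of 20 genes above 0. Single libraries moved these medians: without control 1 the fibrillar median was 0.00 and the median of the other types 0.03, and without mutant 4 the FACIT median was 0.03. Without any 1 library or clutch the medians ranged from 0.00 to 0.20 for fibrillar genes, 0.01 to 0.14 for FACITs, 0.08 to 0.20 for basement membrane collagens and 0.03 to 0.11 for the other types. Clutches differed in sign. The median over the 55 genes was 0.20, 0.10, -0.07 and 0.17 in clutches 1 to 4, and 46, 38, 14 and 48 of the 55 were higher in the mutant of clutches 1 to 4 (83.6%, 69.1%, 25.5% and 87.3%). For all tested genes these shares were 48.9%, 48.5%, 50.7% and 52.0%. Clutch 3 thus had most collagen genes lower in its mutant, while the other clutches had most of them higher. Without the control of clutch 1 the number of collagen genes above 0 was 36, and without the mutant of clutch 2 it was 38.

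**Figure D1:**
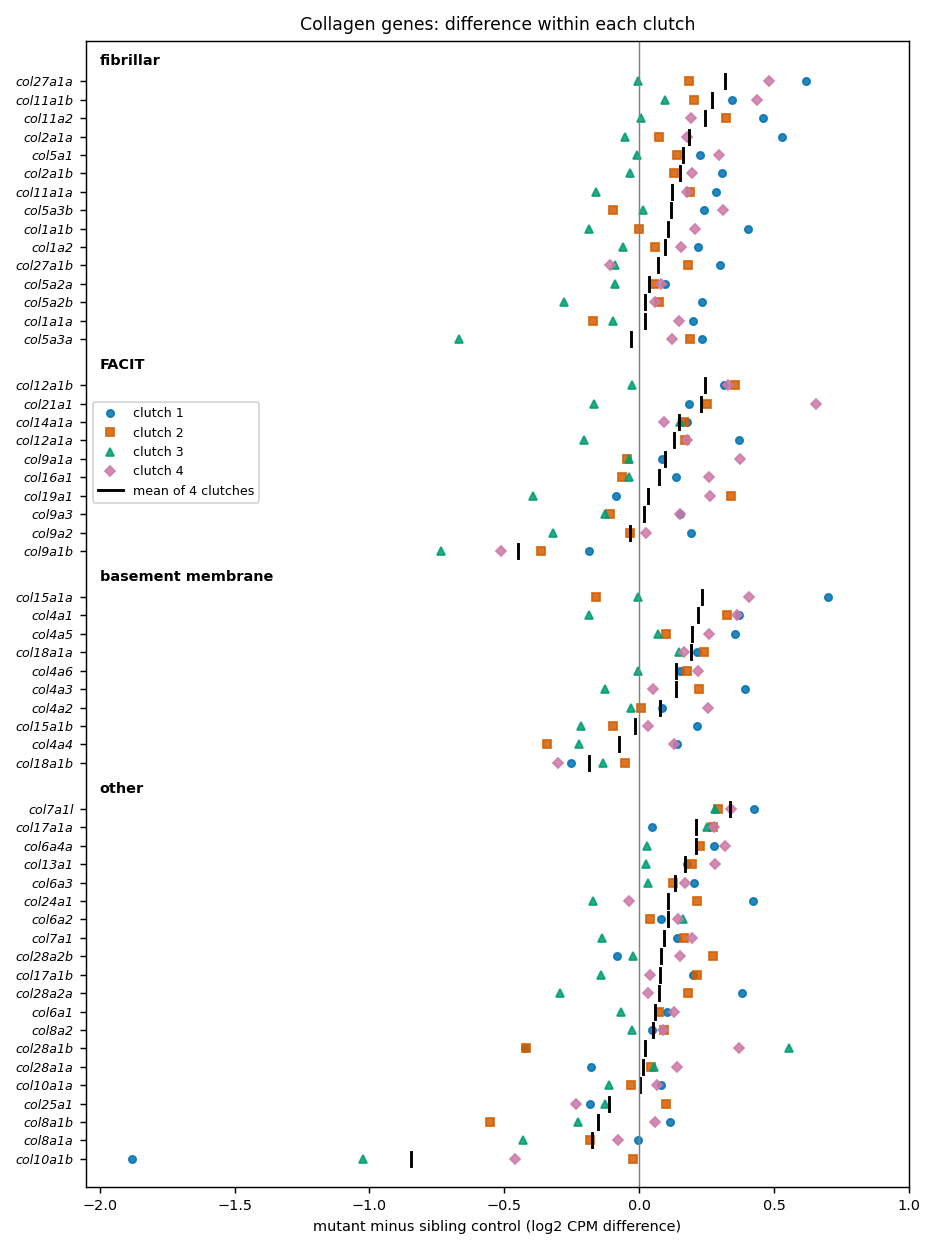
Each row is 1 of the 55 collagen genes, sorted by mean within its group, and the horizontal axis gives the mutant minus the sibling control of the same clutch in log2 CPM. Symbols are the 4 clutches and the black bar is their mean; most bars lie slightly to the right of 0, clutch 3 lies mostly to the left, and col9a1b and col10a1b have all 4 clutches below 0.

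As a share of the summed normalized values, the 55 genes took 1.57% to 2.3% of all CPM in the 8 libraries. The share was 1.96% ± 0.278 in controls and 2.09% ± 0.229 in mutants (SD over 4 libraries). The groups overlapped. The summed level of fibrillar genes was 10410 to 16080 CPM in controls and 12880 to 16400 CPM in mutants, and within clutches 1 to 4 the mutant had 1.24, 1.02, 0.944 and 1.14 times the level of its control. FACITs summed to 1825 to 2641 CPM in controls and 2112 to 2683 CPM in mutants, with mutant to control ratios of 1.16, 1.02, 0.866 and 1.08. Basement membrane collagens summed to 1325 to 1398 CPM in controls and 1394 to 1623 CPM in mutants, with ratios of 1.18, 1.1, 1.02 and 1.16. Only the mutant of clutch 3 lay inside the range of the controls. The other types summed to 2108 to 2281 CPM in controls and 2276 to 2401 CPM in mutants, with ratios of 1.08, 1.08, 1.02 and 1.12. In bulk RNA, more cells of a type and more RNA per cell cannot be told apart.

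**Figure D2:**
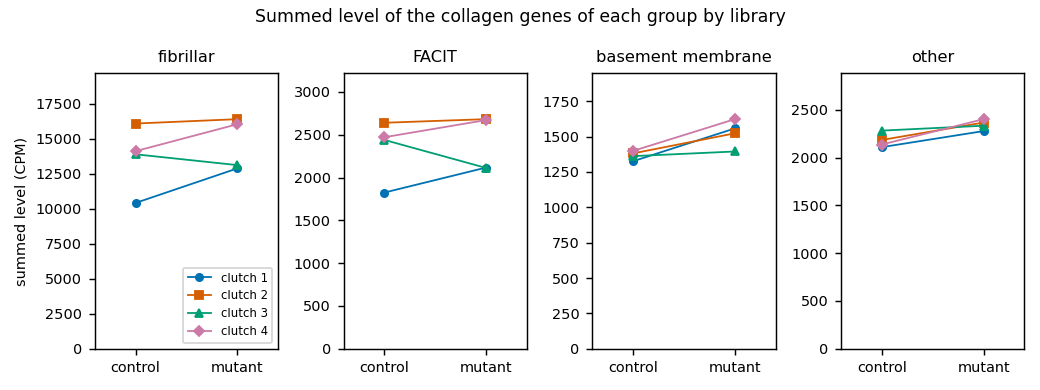
The vertical axis of each panel is the summed level in CPM of the collagen genes of 1 group, starting at 0, and lines join the control and the mutant library of each clutch. Control 1 is the lowest library for fibrillar genes and FACITs, and in basement membrane and other types the mutant lies above its own control in all 4 clutches.

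Among fibrillar collagens, the type XI genes encode minor chains that are built into cartilage fibrils and set their width. col11a1b (gene ID 555202) had 8.13, 8.26, 8.24 and 8.13 log2 CPM in the controls of clutches 1 to 4 and 8.48, 8.47, 8.34 and 8.56 log2 CPM in the mutants. All 4 mutants lay above all 4 controls. The means were 8.19 ± 0.07 log2 CPM over controls and 8.46 ± 0.09 log2 CPM over mutants (SD, n = 4), a difference of 0.27 log2 units (95% confidence interval 0.08 to 0.46 without the block and 0.14 to 0.40 with it). It did not pass without the block (limma adjusted p = 0.904) and passed with it (adjusted p = 0.0241). The blocked call was lost without clutch 1, clutch 2 or clutch 4 (adjusted p = 0.0901, 0.0789 and 0.254).

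Its partner chains did not pass in either fit. col11a2 (gene ID 561679) had 8.67, 9.64, 9.58 and 9.76 log2 CPM in controls and 9.13, 9.96, 9.58 and 9.95 in mutants. Control 1 and mutant 1 were the lowest of their groups by a wide margin, and each mutant was above its own control, by 0.46, 0.32, 0.01 and 0.19 log2 units in clutches 1 to 4 (blocked limma adjusted p = 0.0702). col11a1a (gene ID 565402), the other copy of this chain's gene, differed by 0.28, 0.19, -0.16 and 0.18 log2 units, lower in clutch 3 and higher in the other clutches (adjusted p = 0.443).

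Type II collagen is the main fibril of cartilage and of the notochord sheath. col2a1a (gene ID 562496) had 10.51, 11.47, 11.27 and 11.37 log2 CPM in the controls and 11.04, 11.54, 11.22 and 11.54 log2 CPM in the mutants. The groups overlapped, and control 1 was the lowest library. The difference was 0.18 log2 units with a blocked interval of 0.00 to 0.36 (blocked limma adjusted p = 0.362). Its copy col2a1b (gene ID 503730) differed by 0.31, 0.13, -0.03 and 0.20 log2 units in clutches 1 to 4, with the same order of clutches (adjusted p = 0.257). For both copies the difference was near 0 in clutch 3.

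Type I collagen, the fibril of bone, skin and tendon, showed no call. col1a1a (gene ID 337158) had 11.54, 12.18, 11.84 and 11.74 log2 CPM in controls and 11.74, 12.01, 11.74 and 11.89 log2 CPM in mutants, and the groups overlapped throughout. Its difference was 0.02 log2 units (blocked interval -0.11 to 0.15). col1a1b (gene ID 325675) and col1a2 (gene ID 336471), which encode the other type I chains, differed by 0.11 and 0.09 log2 units (blocked intervals -0.08 to 0.29 and -0.03 to 0.21). col1a1a and the type V gene col5a3a lie on the chromosome of ccdc103 in the RefSeq gene order, so an effect of linkage and one of genotype cannot be told apart for them. The difference of col5a3a was -0.03 log2 units.

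Type V collagen starts the assembly of type I fibrils. col5a1 (gene ID 100334431) differed by 0.23, 0.14, -0.01 and 0.30 log2 units in clutches 1 to 4 (mean 0.16, blocked limma adjusted p = 0.199). The type V genes col5a2a, col5a2b and col5a3b had mean differences of 0.04, 0.02 and 0.12 log2 units. Type XXVII collagen is needed for the mineralizing notochord and vertebral column in zebrafish. col27a1a (gene ID 100004688) had 4.17, 4.81, 4.71 and 4.51 log2 CPM in controls and 4.79, 5.00, 4.71 and 4.99 log2 CPM in mutants. It was the largest difference among fibrillar genes, at 0.32 log2 units, with values of 0.62, 0.18, 0.00 and 0.48 in clutches 1 to 4, and it did not pass (blocked limma adjusted p = 0.106). Its copy col27a1b differed by 0.07 log2 units, with both signs among the clutches.

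The FACIT gene called in the blocked fit encodes a chain of type IX collagen, which coats type II fibrils in cartilage and carries chains from several genes. col9a1b (gene ID 406548) had 6.39, 8.36, 8.02 and 8.25 log2 CPM in the controls of clutches 1 to 4 and 6.21, 7.99, 7.29 and 7.74 log2 CPM in the mutants. Clutch 1 was far below the other clutches in both genotypes, and the groups overlapped. Within clutches 1 to 4 the mutant minus its control was -0.19, -0.36, -0.73 and -0.51 log2 units, lower in each. The means were 7.75 ± 0.92 log2 CPM over controls and 7.30 ± 0.79 log2 CPM over mutants (SD, n = 4), and the mean difference of -0.45 is a level 1.37-fold lower. The gene did not pass without the block (95% confidence interval -1.60 to 0.70, limma adjusted p = 1.00), in which the clutch 1 gap counts as error. With the block the interval was -0.61 to -0.29 (adjusted p = 0.00562). The blocked call held without clutch 1, clutch 2 or clutch 3 (adjusted p = 0.000148, 0.0324 and 0.0120) and was lost without clutch 4 (adjusted p = 0.0536), and with plain moderation (adjusted p = 0.184). Without the block the difference ranged from -0.90 without control 1 to -0.08 without mutant 1.

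The other type IX genes did not pass in either fit. col9a1a (gene ID 100170785), the other copy of the α1 gene, had 7.82, 7.83, 7.83 and 7.75 log2 CPM in controls and 7.90, 7.79, 7.79 and 8.13 log2 CPM in mutants. Mutant 4 was the highest library and the other libraries lay within a narrow band. col9a2 (gene ID 321212) differed by 0.19, -0.03, -0.32 and 0.02 log2 units in clutches 1 to 4 and col9a3 (gene ID 567110) by 0.15, -0.11, -0.12 and 0.15, each with both signs, and their blocked intervals were -0.18 to 0.12 and -0.11 to 0.15. Within a library, col9a1b relative to col9a2 changed by -0.38, -0.33, -0.42 and -0.54 log2 units in clutches 1 to 4, and relative to col9a1a by -0.27, -0.32, -0.70 and -0.89. All 4 clutches had the same sign in each, with means of -0.42 ± 0.09 and -0.55 ± 0.30 (SD over 4 clutches). Such agreement was not particular to col9a1b among the 22 chain pairs. The ratios of col1a1a to col1a2 and of col11a1a to col11a2 and col11a1b were also lower in 4 of 4 clutches. Those of col5a1 to col5a2a and of col6a3 to col6a1 were higher in 4 of 4. Against all 70 ways to arrange the 8 libraries, which ignores clutch, an exact permutation test (two-sided) gave p = 0.400 and 0.457 (adjusted p = 0.628 for each over 22 chain pairs). That test counts the gaps between clutches as error. An exact test that changes signs within 4 clutches cannot reach 0.05, so no paired p is given.

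**Figure D3:**
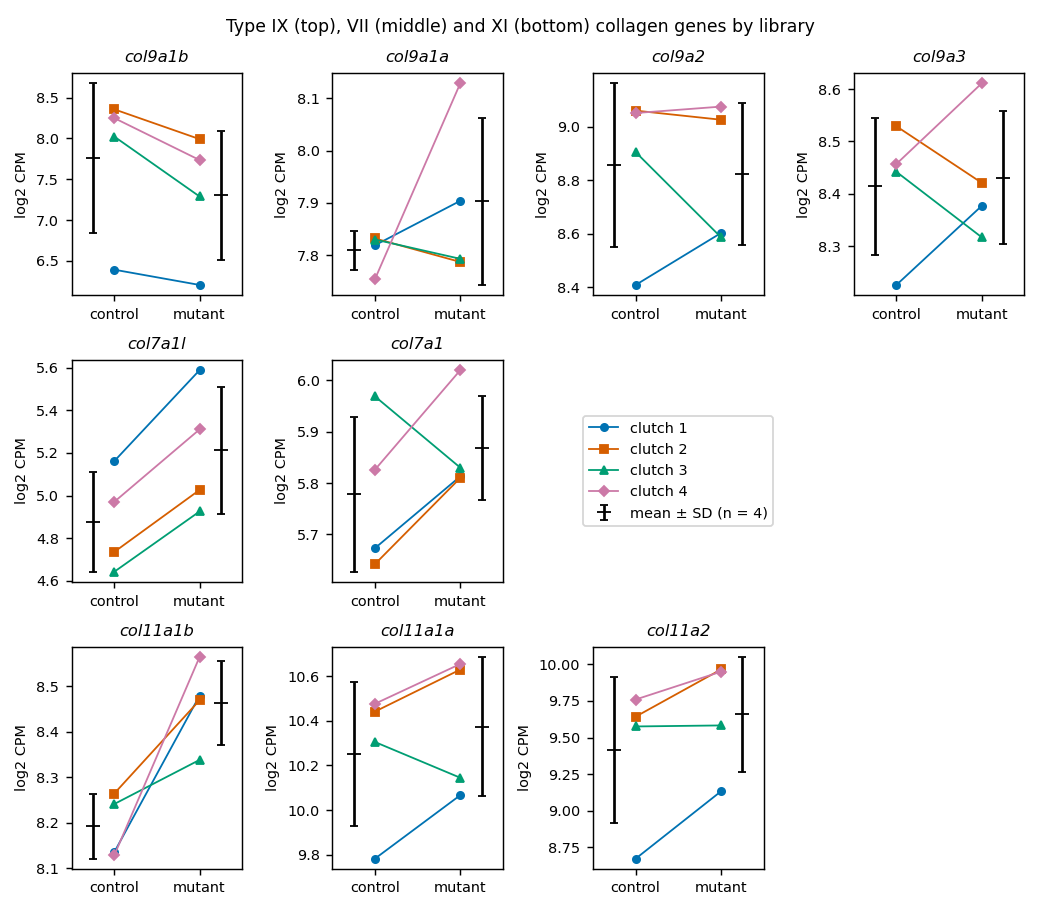
Levels in log2 CPM of 9 collagen genes in control and mutant libraries, with lines joining libraries of a clutch and black bars giving the mean ± SD of each group (n = 4); the vertical axes differ between panels and do not start at 0. The 4 lines of col9a1b all fall, with clutch 1 far below the rest, those of col7a1l and col11a1b rise, and the other type IX genes have lines of both signs.

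Type XII and XIV collagens are FACITs of tendon, fascia and skin. col12a1b (gene ID 562946) differed by 0.32, 0.36, -0.03 and 0.33 log2 units in clutches 1 to 4 (blocked limma adjusted p = 0.0686), and its copy col12a1a by 0.37, 0.17, -0.20 and 0.18 (adjusted p = 0.521). Both were lower in the mutant of clutch 3 alone. The type XIV gene col14a1a was higher by 0.18, 0.17, 0.15 and 0.09 log2 units in clutches 1 to 4 (adjusted p = 0.311). The remaining FACIT genes, col16a1, col19a1 and col21a1, had mean differences of 0.07, 0.03 and 0.23 log2 units, with both signs among the clutches.

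In basement membranes, 0 of 10 collagen genes passed in either fit (limma). At an unadjusted p under 0.05 there were 2 without blocking, both higher (20%, against 1.94% of all tested genes called higher), and 5 with blocking, of which 4 were higher and 1 lower (40% and 10%, against 6.64% and 6.89%). Type IV chains are made from pairs of neighbouring genes, and in the RefSeq gene order col4a1 and col4a2, col4a3 and col4a4, and col4a5 and col4a6 were next to each other. col4a5 (gene ID 323561), whose chain occurs in skin, kidney and eye basement membranes in mammals, had 8.65, 8.71, 8.67 and 8.68 log2 CPM in controls and 9.01, 8.81, 8.74 and 8.94 log2 CPM in mutants. All mutants lay above all controls (difference 0.20, blocked limma adjusted p = 0.113). Its neighbour col4a6 (gene ID 554268) differed by 0.15, 0.18, 0.00 and 0.22 log2 units in clutches 1 to 4 (adjusted p = 0.289). The ubiquitous chains col4a1 and col4a2 differed by 0.37, 0.32, -0.19 and 0.36 and by 0.08, 0.01, -0.03 and 0.26 log2 units, lower in clutch 3. col4a3 and col4a4, whose chains serve kidney and inner ear in mammals, had low levels, with means of 2.25 and 2.40 log2 CPM in controls and differences of 0.14 and -0.07 log2 units.

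The copies of the type XVIII gene, whose product is a heparan sulfate proteoglycan of basement membranes, differed in sign. col18a1a (gene ID 564123) had 8.24, 8.25, 8.39 and 8.39 log2 CPM in controls and 8.46, 8.49, 8.54 and 8.56 log2 CPM in mutants, with all mutants above all controls. col18a1b (gene ID 100334893) had 4.63, 4.52, 4.66 and 4.57 log2 CPM in controls and 4.38, 4.46, 4.52 and 4.27 log2 CPM in mutants, with each mutant below its own control. Neither passed (blocked limma adjusted p = 0.0737 and 0.258). The ratio of col18a1a to col18a1b was higher in mutants by 0.47, 0.29, 0.28 and 0.47 log2 units in clutches 1 to 4, from 3.73 ± 0.09 in controls to 4.1 ± 0.13 (SD, n = 4). Several other chain pairs also had the same sign in all clutches. The exact two-sided permutation p of 0.0286 is the smallest that 4 against 4 libraries can give, and its adjusted p over the 22 chain pairs was 0.628. A single pair at the smallest p cannot pass that adjustment, so the test cannot decide for this ratio. The unadjusted p is the lowest of 22 and is not read alone. The type XV genes col15a1a and col15a1b differed by 0.23 and -0.02 log2 units.

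**Figure D4:**
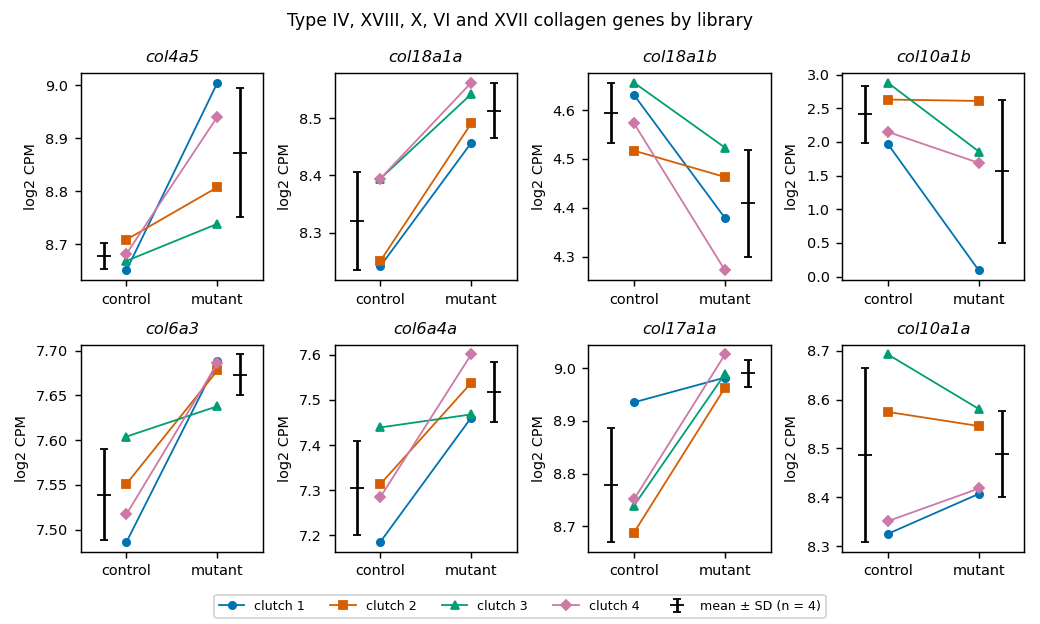
Levels in log2 CPM of 8 collagen genes of types IV, XVIII, X, VI and XVII by library, drawn as lines between the control and the mutant of a clutch with the mean ± SD of each group (n = 4); the vertical axes differ and do not start at 0. In col4a5, col18a1a, col6a3, col6a4a and col17a1a all mutants lie above all controls, and in col18a1b and col10a1b each mutant lies below its own control.

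Among the other types, type VII collagen forms the anchoring fibrils that tie the epidermal basement membrane to the dermis. col7a1l (gene ID 559516), named for its likeness to the type VII gene, had 5.16, 4.74, 4.64 and 4.97 log2 CPM in controls and 5.59, 5.03, 4.92 and 5.31 log2 CPM in mutants. The groups overlapped, but the order of the clutches was the same in both genotypes, and each mutant was above its control by 0.43, 0.29, 0.28 and 0.34 log2 units. The mean difference was 0.34 (95% confidence interval -0.02 to 0.69 without the block, limma adjusted p = 1.00, and 0.20 to 0.47 with it, adjusted p = 0.00915). The blocked call held without clutch 1, clutch 2 or clutch 3 (adjusted p = 0.0301, 0.0459 and 0.0180) and was lost without clutch 4 (adjusted p = 0.0660). Without the block the difference ranged from 0.21 without mutant 1 to 0.43 without mutant 3. col7a1 (gene ID 100332562) differed by 0.14, 0.17, -0.14 and 0.20 log2 units, lower in clutch 3 alone (adjusted p = 0.605). The ratio of col7a1l to col7a1 was higher in 4 of 4 clutches, by 0.29, 0.12, 0.42 and 0.15 log2 units (mean 0.24 ± 0.14, SD over 4 clutches). Here too, other chain pairs had the same sign in all clutches. The exact permutation test, which ignores clutch, gave p = 0.343 (adjusted p = 0.628).

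Type XVII collagen spans the membrane of basal keratinocytes in hemidesmosomes. col17a1a (gene ID 557257) had 8.94, 8.69, 8.74 and 8.75 log2 CPM in controls and 8.98, 8.96, 8.99 and 9.03 log2 CPM in mutants. All mutants lay above all controls, with control 1 close to the mutants, and the difference of 0.21 log2 units did not pass with the block (limma adjusted p = 0.0634). Without clutch 1 it passed, and the blocked calls were then col9a1b, col7a1l and col17a1a. Its copy col17a1b differed by 0.20, 0.21, -0.14 and 0.04 log2 units in clutches 1 to 4.

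Type VI collagen makes beaded filaments around muscle fibres and other cells. col6a3 (gene ID 556874) had 7.49, 7.55, 7.60 and 7.52 log2 CPM in controls and 7.69, 7.68, 7.64 and 7.69 log2 CPM in mutants, and col6a4a (gene ID 564005) had 7.18, 7.31, 7.44 and 7.28 and 7.46, 7.54, 7.47 and 7.60 log2 CPM. In both, all mutants lay above all controls, with differences of 0.13 and 0.21 log2 units (blocked limma adjusted p = 0.3 and 0.092). The partner chains col6a1 and col6a2 differed by 0.10, 0.07, -0.07 and 0.13 and by 0.08, 0.04, 0.16 and 0.14 log2 units in clutches 1 to 4, and all 4 type VI genes had a mean difference above 0. Groups that did not overlap were thus seen in 6 collagen genes (10.9%), col11a1b, col4a5, col18a1a, col17a1a, col6a3 and col6a4a, all higher in mutants, against 1.87% of all tested genes. It was seen for 0 collagen genes in the lower direction, against 1.05% of all tested genes.

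Type X collagen marks hypertrophic cartilage in mammals and bone-forming cells in fish. col10a1b (gene ID 555804) was low, at 1.97, 2.63, 2.88 and 2.15 log2 CPM in controls and 0.09, 2.61, 1.86 and 1.69 log2 CPM in mutants. Mutant 1 was the lowest library and clutch 2 showed next to no difference, with values of -1.88, -0.02, -1.02 and -0.46 log2 units in clutches 1 to 4. Its mean difference of -0.85 had a 95% confidence interval of -1.89 to 0.20 without the block and -1.53 to -0.16 with it, and it did not pass in either fit (limma, unblocked adjusted p = 1.00, blocked adjusted p = 0.26). col10a1a (gene ID 558919), the other copy, had 8.32, 8.57, 8.69 and 8.35 log2 CPM in controls and 8.41, 8.55, 8.58 and 8.42 log2 CPM in mutants, a difference of 0.00 with a blocked interval of -0.12 to 0.12. Of the type VIII genes, which encode short-chain network collagens, col8a1a and col8a1b had mean differences of -0.17 and -0.15 log2 units and col8a2 of 0.05. col8a1a, needed for notochord and vertebral bone shape in zebrafish, had differences of -0.01, -0.18, -0.43 and -0.08 log2 units in clutches 1 to 4, all below 0 (adjusted p = 0.374). The membrane-spanning type XIII gene col13a1 was higher in 4 of 4 clutches (mean 0.17, adjusted p = 0.329). The remaining genes, col24a1, col25a1, col28a1a, col28a1b, col28a2a and col28a2b, had mean differences between -0.11 and 0.11 log2 units.

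Over the 55 genes, 11 were higher in 4 of 4 clutches (20%, against 11.0% of all tested genes) and 4 were lower in 4 of 4 clutches (7.27%, against 10.9%), namely col9a1b, col10a1b, col18a1b and col8a1a. With the block, 17 collagen genes had an unadjusted p under 0.05 and were higher (30.9%, against 6.64% of all tested genes) and 3 were lower (5.45%, against 6.89%), which makes 20 in all (36.4%, against 13.5%). Of the 57 rows in the authors' deposited table, which include col4a3bpa and col4a3bpb, 0 had an adjusted p under 0.05 and 6 had a p under 0.05. These were col11a1b, col17a1a, col4a5, col6a4a and col7a1l, higher in mutants, and col10a1b, lower. The smallest p of the 57 was that of col10a1b (the authors' p = 0.0217, adjusted p = 1.00, log2 fold change -0.85). The share of all genes with an authors' p under 0.05 was not computed, so the 6 are not set against it.

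Levels of many collagen genes also varied between clutches. Control 1 was the lowest control for 36 of the 55 genes, among them 12 of 15 fibrillar genes, and 19 genes (34.5%, against 21.4% of all tested genes) had their lowest level in clutch 1 in both genotypes. Among mutants the lowest was mutant 3 for 30 genes and mutant 1 for 19. For the counts within 1 genotype the shares over all tested genes were not computed. The SD between the 4 controls had a median of 0.18 log2 CPM over the collagen genes, against 0.21 over all tested genes, and it was highest for col9a1b at 0.92. It was 0.50 for col11a2 and 0.44 for col2a1a, and no more than 0.07 for any of col4a5, col6a1, col6a2 and col6a3. The next highest was 0.59 for col28a1b, a gene near the lower limit of the tested genes. The SD was 0.04 for col9a1a and 0.07 for col11a1b, so chains of the same collagen type varied to different extents.

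**Figure D5:**
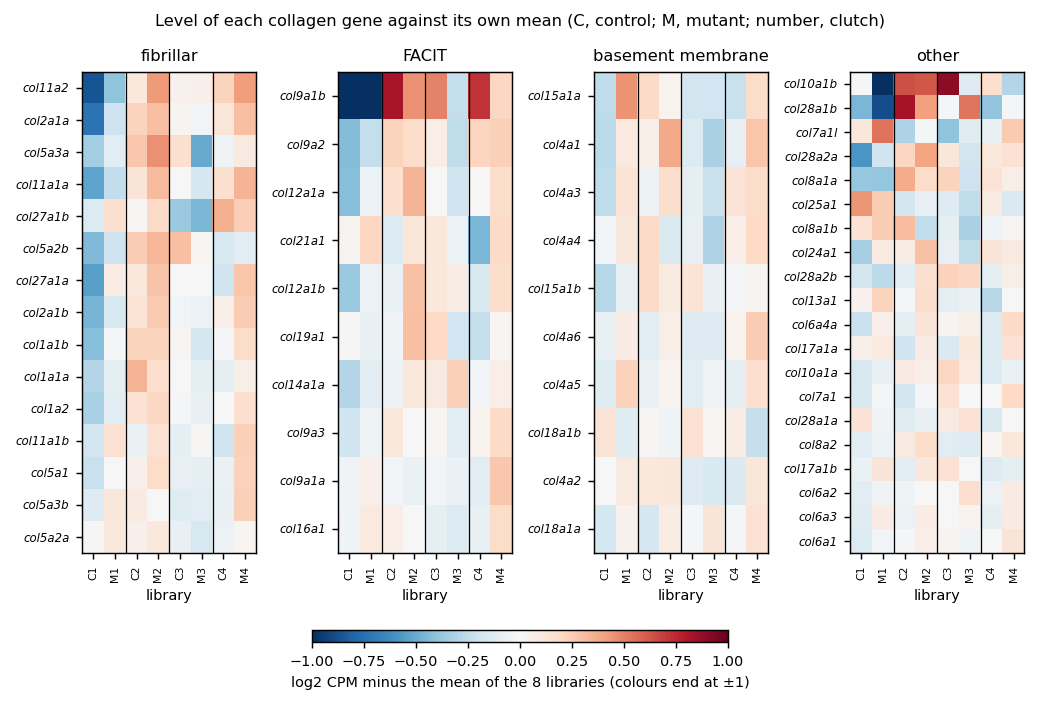
Colours give each gene's log2 CPM minus its mean over the 8 libraries, with red above and blue below the mean; columns are libraries in clutch order (C, control; M, mutant), and rows are sorted by spread in each group. Clutch 1 is blue for col9a1b, col11a2 and col2a1a, and col6a1, col6a2 and col6a3 at the foot of the last panel are pale.

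Genes that make, place and remove collagen were read from lists, in each of which 0 genes passed without the block, and are set against the 51.1% of all tested genes above 0 and their median of 0.00. With the block 0.948% of all tested genes were called higher and 1.39% lower, and 6.64% and 6.89% were higher and lower at an unadjusted p under 0.05. Tested were 25 of 28 listed genes for hydroxylation and folding, 31 of 38 for export to cross-linking and 31 of 35 for receptors and degradation. For proteins that associate with fibrils 36 of 38 were tested, and for basement membrane partners 25 of 28. For hydroxylation and folding, 22 of 25 measured genes lay above 0, with a median of 0.10, and 0 passed with the block in limma, where 5 of 25 had an unadjusted p under 0.05, all higher (against 6.64% of all tested genes). Its most abundant members by CPM, the prolyl isomerase gene ppib and the chaperone gene hspa5, differed by -0.03 and 0.09 log2 units. For export, propeptide cleavage and cross-linking, 19 of 31 measured genes lay above 0, with a median of 0.02, and 2 of 31 rose with the block (against 0.948% of all tested genes). These were the peroxidasin gene pxdn, whose enzyme forms sulfilimine bonds in type IV collagen, at 5.23 ± 0.11 log2 CPM over controls and 5.72 ± 0.15 log2 CPM over mutants (SD, n = 4) (blocked limma adjusted p = 0.00157), and the procollagen cleavage enhancer gene pcolcea (difference 0.24, adjusted p = 0.0396). All 4 mutants lay above all 4 controls in pxdn. For receptors and degradation, 25 of 31 measured genes lay above 0, with a median of 0.10, and 0 passed (8 of 31 at an unadjusted p under 0.05 with the block, all higher, against 6.64% of all tested genes). The integrin gene itgb1a and the gelatinase gene mmp2 differed by 0.16 and 0.10 log2 units.

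For proteins that associate with fibrils, 26 of 36 measured genes lay above 0, with a median of 0.08, and 3 of 36 rose and 1 fell with the block (against 0.948% and 1.39% of all tested genes). At an unadjusted p under 0.05 in the blocked limma fit, 9 were higher and 3 lower (25% and 8.33%, against 6.64% and 6.89%). Lower in 4 of 4 clutches without a call were omd and thbs4a, at -0.54 and -0.28 log2 units (blocked limma adjusted p = 0.119 and 0.198). The fibronectin genes fn1b and fn1a rose by 0.35 and 0.34 log2 units and the fibrillin gene fbn2b by 0.40 (blocked limma adjusted p = 0.00218, 0.00275 and 0.00292). matn3b, of the cartilage matrilins that link type II fibrils to other matrix, fell by 0.99, 0.52, 0.70 and 1.34 log2 units in clutches 1 to 4 (adjusted p = 0.0106). The other matrilin genes of the list did not fall with it: matn1, matn3a and matn4 differed by 0.10, -0.04 and 0.19 log2 units. None of these passed with the block. Like col9a1b, matn3b was lowest in clutch 1 in both genotypes, at 4.47 and 3.49 log2 CPM, against group means of 5.46 and 4.57. For laminins, nidogens and other basement membrane partners, 23 of 25 measured genes lay above 0, with a median of 0.14. With the block 6 of 25 rose and 0 fell (against 0.948% and 1.39% of all tested genes), and 11 were higher and 0 lower at an unadjusted p under 0.05. The 6 called were the laminin genes lamb1a, lamc1, lama1 and lama5, the perlecan gene hspg2 and the Fraser complex gene frem2b. They rose by 0.25 to 0.37 log2 units. lamb1a had 7.07 ± 0.04 log2 CPM over controls and 7.41 ± 0.05 log2 CPM over mutants (SD, n = 4) and its groups did not overlap (adjusted p = 0.00383). With plain moderation the blocked calls in these lists, too, numbered 0.

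Markers of the cell types that make collagen were read from lists as well. Tested genes had to reach 1 CPM in at least 4 of 8 libraries, so markers below that are not in these counts. Tested were 11 of 13 listed markers for notochord, 7 of 8 for basal epidermis, 11 of 12 for bone and 16 of 18 for tendon and fibroblasts. In the other marker lists every listed marker was tested. In each list 0 passed without the block. For cartilage, 13 of 16 measured markers lay above 0 and the summed level was 1988 to 2294 CPM in controls and 2089 to 2496 CPM in mutants, with 0 called with the block. This list shares matn1, matn4 and epyc with the list of proteins that associate with fibrils. It leaves out the matrilin genes matn3a and matn3b, which differed by -0.04 and -0.89 log2 units. For notochord, 3 of 11 measured markers lay above 0 and the summed level was 312 to 482 CPM in controls and 284 to 446 CPM in mutants, with 0 called. Basal epidermis had 5 of 7 above 0 and sums of 4341 to 4835 CPM in controls and 4325 to 4915 CPM in mutants, with lama5 called higher. That gene is also 1 of the called basement membrane partners. Of these 7 markers, 2 were higher and 2 lower in 4 of 4 clutches (28.6% each, against 11.0% and 10.9% of all tested genes). The blocked limma fit likewise had 2 higher and 2 lower at an unadjusted p under 0.05 (against 6.64% and 6.89%). In that fit cartilage had 3 higher and 0 lower, notochord 1 and 1, and bone 0 and 0. Tendon and fibroblasts had 2 and 0, vessel endothelium 2 and 0, and somitic muscle 2 and 4. For bone, 6 of 11 measured markers lay above 0 and the summed level was 185 to 201 CPM in controls and 185 to 200 CPM in mutants, with 0 called. For tendon and fibroblasts, 11 of 16 measured markers lay above 0 and the summed level was 448 to 590 CPM in controls and 479 to 588 CPM in mutants, with the chemokine gene cxcl12a called higher (0.24 log2 units). For vessel endothelium, 9 of 15 measured markers lay above 0 and the summed level was 280 to 320 CPM in controls and 294 to 326 CPM in mutants, with 0 called. For somitic muscle, 13 of 20 measured markers lay above 0 and the summed level was 51480 to 57000 CPM in controls and 55440 to 56820 CPM in mutants, with the actin gene acta1b and the troponin gene tnni2a.4 called lower with the block (-0.38 and -0.27 log2 units). Over all marker lists 2 genes were thus called higher and 2 lower with the block, where 0.948% and 1.39% of all tested genes were, and with plain moderation the calls numbered 0. The blocked calls were 1 of 7 basal epidermis markers (14.3%), 1 of 16 for tendon and fibroblasts (6.25%) and 2 of 20 for somitic muscle (10%). In every marker list the summed levels of the groups overlapped. Among the earlier lists they did not overlap for proteins that associate with fibrils (5168 to 5816 CPM in controls, 5884 to 6109 CPM in mutants). Nor did they for basement membrane partners (2066 to 2206 CPM in controls, 2265 to 2531 CPM in mutants). In the remaining lists they overlapped. The sums that did not overlap include genes already called with the block, and a sum follows its most abundant genes. In the fibril list fn1b alone had a mean of 869 CPM, and no sum was taken without it. How often sums of other gene sets separate the groups was not computed. The part of cell type shares in the collagen differences was not tested.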

How the data were processed

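Whole zebrafish larvae were profiled by RNA sequencing, with 4 mutant and 4 sibling control libraries, grouped by the labels. Reads were filtered with SOAPnuke 1.5.2, per the labels' protocols. HISAT2 2.0.4, Bowtie2, RSEM, limma and GRCz11 are named in the submitters' processing notes, without roles. The authors deposited log2 CPM values, a unit read from the numbers: unlogged, they sum to 997999 to 998006 CPM per library. Identical values recur between libraries, so the values appear already normalized between libraries, and the equal totals may come from that. They also deposited a table of log2 fold changes with, for each gene, its p-value before and after adjustment. No counts were used, so depth is unknown and precision rests on the spread between libraries.

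Genes with at least 4 of 8 libraries at 0 log2 CPM or more were tested (20154 of 20409), with limma 3.58.1 in R 4.3.3 (genotype term, trend, robust), adjusted over all tested genes by Benjamini-Hochberg. Clutch numbers pair the libraries because the labels name a clutch, and clutch mates deviated together (r = 0.72, 0.50, 0.50 and 0.30). Results of both models are therefore given where the block changes a call. Where a single limma adjusted p is given for a collagen or listed gene, it comes from the blocked model. Each library pools larvae of 1 clutch, and p-values measure the spread between these libraries. Collagen genes were found by symbol, grouped by type number and checked against RefSeq symbols of GRCz12tu (57 of 57 IDs matched). Named genes were those called in either fit, the 4 most abundant of each group, the 5 largest rises and falls at a mean of 5 CPM or more, and their partner chains; the other members were named after their values were seen, to complete each type. The members and lists were chosen with earlier results of these data known. Chain ratios were tested with exact permutation tests. The fits were also run on simulated data with known changes. Those changes were larger than most collagen differences, so that run does not show how the fits do at such sizes. Alternatives were the clutch block, filters, rescaling, a pseudocount of 1 CPM, other variance moderation, and leaving out libraries or clutches. The chromosome and order of genes were taken from RefSeq, and sequences were not used here.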

Additional observations from a re-analysis of the deposited data

Results flagged for a closer look

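In 6 of the 66 groups of 4 libraries examined for the 33 named collagen genes, 1 library stood apart from the other members of its group, with a gap to its nearest neighbour above Dixon's 95% critical value as a share of the group's range. Chance flags about 1 in 20 such groups. Among controls, the library of clutch 1 was low for col9a1b (gap 0.831 of the range) and col11a2 (0.830), and the library of clutch 4 was low for col9a1a (0.838), whose whole range was 0.08 log2 units. Among mutants, the library of clutch 4 was high for col7a1 (0.904), and the library of clutch 3 was low for col4a3 (0.885) and col4a2 (0.913). Leaving out control 1 changed the unblocked difference of col9a1b from -0.45 to -0.90.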

How the results depend on the processing

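Without the clutch block, 0 collagen genes passed under any filter, rescaling, pseudocount or variance setting, or without any 1 library. In all 8-library settings each named collagen gene kept the sign of its difference. The block, the filters and the variance options cannot change that difference, so only rescaling and the pseudocount could have changed a sign. The median over all genes moved by less than 0.01 log2 units under rescaling. Values that appear already normalized between libraries leave rescaling and a further quantile normalization little to change. With the replicate block, 2 collagen genes were called higher and 1 lower, and the same 3 genes were called with median-ratio rescaling, with quantile normalization again and with 1 CPM added before log2 (2 higher and 1 lower in each, settings of the block added after seeing the data). With plain moderation 0 were called in the paired fit. Leaving out 1 library or 1 clutch gave 0 to 7 collagen genes called higher and 0 to 1 called lower. The 7 came without clutch 3 with the block, when col11a2, col12a1b, col27a1a, col4a1 and col6a4a passed in addition to col11a1b and col7a1l, and 0 came without clutch 4. The median over collagen genes stayed between 0.04 and 0.15 in these fits. With no counts, the depth behind low genes such as col10a1b is unknown.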

Other observations

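RefSeq gives collagen symbols to 5 more genes of the table that carry other symbols there, and they were not among the 55. Their mean levels in controls and mutants were 7.19 and 7.32 log2 CPM for col14a1b, a second type XIV gene, and 5.13 and 5.29 log2 CPM for col22a1, which marks the junction of muscle and tendon. They were 4.15 and 4.17 log2 CPM for col23a1a, 3.68 and 3.91 for col23a1b, and 0.41 and 0.57 for col26a1. None of the 5 passed in either limma fit. col14a1b and col23a1b were higher in the mutant of 4 of 4 clutches, by 0.12 and 0.23 log2 units (blocked limma adjusted p = 0.373 and 0.306).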
